A study of Mus musculus with 15 samples.

Results

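The genes described here are 9 of the 39179 genes counted in RNA of the mouse submandibular gland: Ascl3, Foxi1, Atp6v1b1, Cftr, Scnn1a, Scnn1b, Scnn1g, Fxyd2 and Slc5a5. They were chosen by name, as genes of ductal ion transport and of ionocytes, with earlier results of these data known. The samples were glands of adult male C57BL/6 mice, and each group was sequenced in 3 libraries. IR+Shh, IR+Gli1 and IR+GFP glands were taken 7 days after local irradiation from mice labelled with transfer into the gland of Shh, Gli1 or the green fluorescent protein GFP. IR glands were taken 7 days after local irradiation with no transfer, and NT glands came from untreated mice. All mice of the IR and NT groups were labelled wild type. The labels name neither the vector, its promoter, the species of the transferred gene nor the radiation dose. Shh is the secreted signal of Hedgehog signalling, and Gli1 one of the factors through which the signal reaches target genes.

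A salivary gland makes its fluid in acini, and the ducts then change its salt content. Duct cells take up sodium through the epithelial sodium channel ENaC on the side of the lumen and pump it out on the blood side, move chloride and bicarbonate through the channel CFTR, and concentrate iodide. Ionocytes are scattered duct cells rich in proton pumps and chloride channels, and in airway epithelium and kidney the transcription factor Foxi1 drives this cell state. Among the genes described, Ascl3 encodes a basic helix-loop-helix transcription factor that marks a population of cells in salivary ducts, Foxi1 a forkhead factor, and Atp6v1b1 the B1 subunit of the vacuolar proton pump. Cftr encodes the chloride and bicarbonate channel, and Scnn1a, Scnn1b and Scnn1g encode the alpha, beta and gamma subunits of ENaC. Fxyd2 encodes the gamma subunit that modulates the sodium pump, and Slc5a5 encodes the sodium-iodide symporter.

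RefSeq promoter windows of 250 bases upstream of the start on GRCm38.p6 matched 7 of the 9 genes, all but Scnn1a and Fxyd2. Since Foxi1 is a forkhead factor, the windows were searched on both strands for the forkhead core letters TGTTTA, which read TAAACA on the other strand. Ascl3 and Atp6v1b1 held the letters, and their windows are printed here 5′ to 3′ on the strand of the gene with the match in capitals. The Ascl3 window (chr7:109731733-109731982, minus strand) held 2 matches, at bases 180 to 175 and 56 to 51 upstream of the start. The Atp6v1b1 window (chr6:83742767-83743016, plus strand) held 1 match, at bases 98 to 93 upstream.
Ascl3: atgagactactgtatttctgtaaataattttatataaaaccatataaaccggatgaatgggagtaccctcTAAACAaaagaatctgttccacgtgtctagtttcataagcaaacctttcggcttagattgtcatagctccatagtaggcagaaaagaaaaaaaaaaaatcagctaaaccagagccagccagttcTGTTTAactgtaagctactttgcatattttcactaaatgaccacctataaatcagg
Atp6v1b1: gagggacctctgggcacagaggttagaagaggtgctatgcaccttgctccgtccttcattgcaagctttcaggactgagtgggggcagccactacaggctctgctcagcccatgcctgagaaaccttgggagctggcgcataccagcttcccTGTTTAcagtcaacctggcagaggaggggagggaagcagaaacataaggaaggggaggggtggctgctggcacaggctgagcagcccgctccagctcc
Foxi1, Cftr, Scnn1b, Scnn1g and Slc5a5 held none in their windows. Of all 32851 promoter windows of this length, 12.0% held the letters. The letters CAGCTG, 1 form of the E-box CANNTG (N any base) and the same on both strands, were searched because Ascl3 is a basic helix-loop-helix factor. They were in none of the 7 windows and in 13% of all windows. Other forms of the E-box were not searched, and the printed Ascl3 window holds CACGTG. All these are matches of letters and not sites of binding.

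The 15 libraries held 18205941 to 41064723 reads in genes. In every group 2 of the 3 libraries differed by less than the sampling noise (mean chi-square per gene 0.215 to 0.337, against 22.0 to 223 for the other 10 pairs within groups), and each such pair was counted as 1 sample. This left 2 samples in each of the 5 groups. Values below are the combined pair and then the single library, except in NT, where the single library comes first; they are CPM, reads scaled to a common library size, after TMM scaling, a scaling that sets the bulk of genes equal between samples. Nothing in the labels says that libraries came from separate animals, so the spread behind each p-value is that of these samples only and may be technical. Mouse Gli1 was at 2.73 and 4.24 CPM in IR+Shh, 0.558 and 0.672 in IR+Gli1, 0.809 and 0.554 in IR+GFP, 0.611 and 0.704 in IR and 0.607 and 0.513 in NT. No library held a read of mouse Shh. If a count of 0 is taken to allow up to 3 reads, this is 0.165 CPM in the smallest library. With TMM the Gli1 values of IR+Gli1 overlapped those of IR+GFP, and by total count its libraries had 0.878 to 0.962 CPM in IR+Gli1, against 0.490 to 0.747 CPM in IR+GFP, with no overlap. Whether Gli1 was higher there thus turned on the scaling and does not settle the label, so each direction below is that of libraries as labelled.

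The samples labelled IR+Gli1 had TMM factors of 1.72 and 1.31, against 0.866 to 0.994 in the other 8 samples. Scaled by total gene reads alone, with no TMM factor, the median of all genes was shifted by 0.79 on the log2 scale in IR+Gli1 against IR+GFP, by -0.67 in IR+Shh against IR+Gli1 and by 0.15 in IR+Shh against IR+GFP. Values with total-count scaling are therefore given beside the main differences that involve IR+Gli1, and levels are with TMM scaling unless stated. The summed level of 8 granular tubule genes, among them Egf, which male submandibular ducts make in large amounts, was 82258 to 96553 CPM in IR+Shh, 26334 to 52226 CPM in IR+Gli1, 127187 to 143863 CPM in IR+GFP, 133935 to 187319 CPM in IR and 170081 to 174281 CPM in NT. With total-count scaling it was 45170 to 68228 CPM in IR+Gli1, against 112493 to 124519 CPM in IR+GFP. The sum of 4 sublingual gland genes (Muc19, Dcpp1, Dcpp2, Dcpp3) was 184 CPM in the combined IR+GFP sample, 34412 CPM in the combined NT sample and at most 1.53 CPM in the others. The acinar marker Smr3a was at or near 0 in all samples, at most 0.0541 CPM, while Aqp5, the acinar water channel, was between 137 and 380 CPM. The part of these differences between samples in the results below was not tested.

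All 9 genes passed the filter on low counts and were read in every library, with 113 to 20887 reads for a gene in a library. Per kilobase of exon, the mean level over the 10 samples was highest for Scnn1b, at 63.0 CPM per kb, then Fxyd2 at 50.7 and Ascl3 at 45.5 CPM per kb. Scnn1a followed at 25.9, Scnn1g at 14.4, Foxi1 at 10.4, Cftr at 5.79, Slc5a5 at 5.10 and Atp6v1b1 at 3.31 CPM per kb. On this measure, the beta subunit of ENaC stood above the alpha and gamma subunits. The iodide symporter and the B1 proton pump subunit had the lowest means over all samples. The order differed between groups. In IR+Gli1 the group mean of Slc5a5 was 10.1 CPM per kb, above Cftr at 5.81. Fxyd2 was above Scnn1b by group mean in IR+Gli1 (74.2 and 61.0 CPM per kb) and IR+Shh (67.5 and 63.5, with overlap), and below it in the other groups. The length was that of all annotated exons of a gene merged, from 700 bases for Ascl3 to 7765 for Cftr. Which transcripts the gland made was not examined, so the order between genes holds for this length only. The ranges of Fxyd2 (27.4 to 79.5 CPM per kb) and Ascl3 (25.2 to 58.4 CPM per kb) over the samples overlapped each other.

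**Figure D1:**
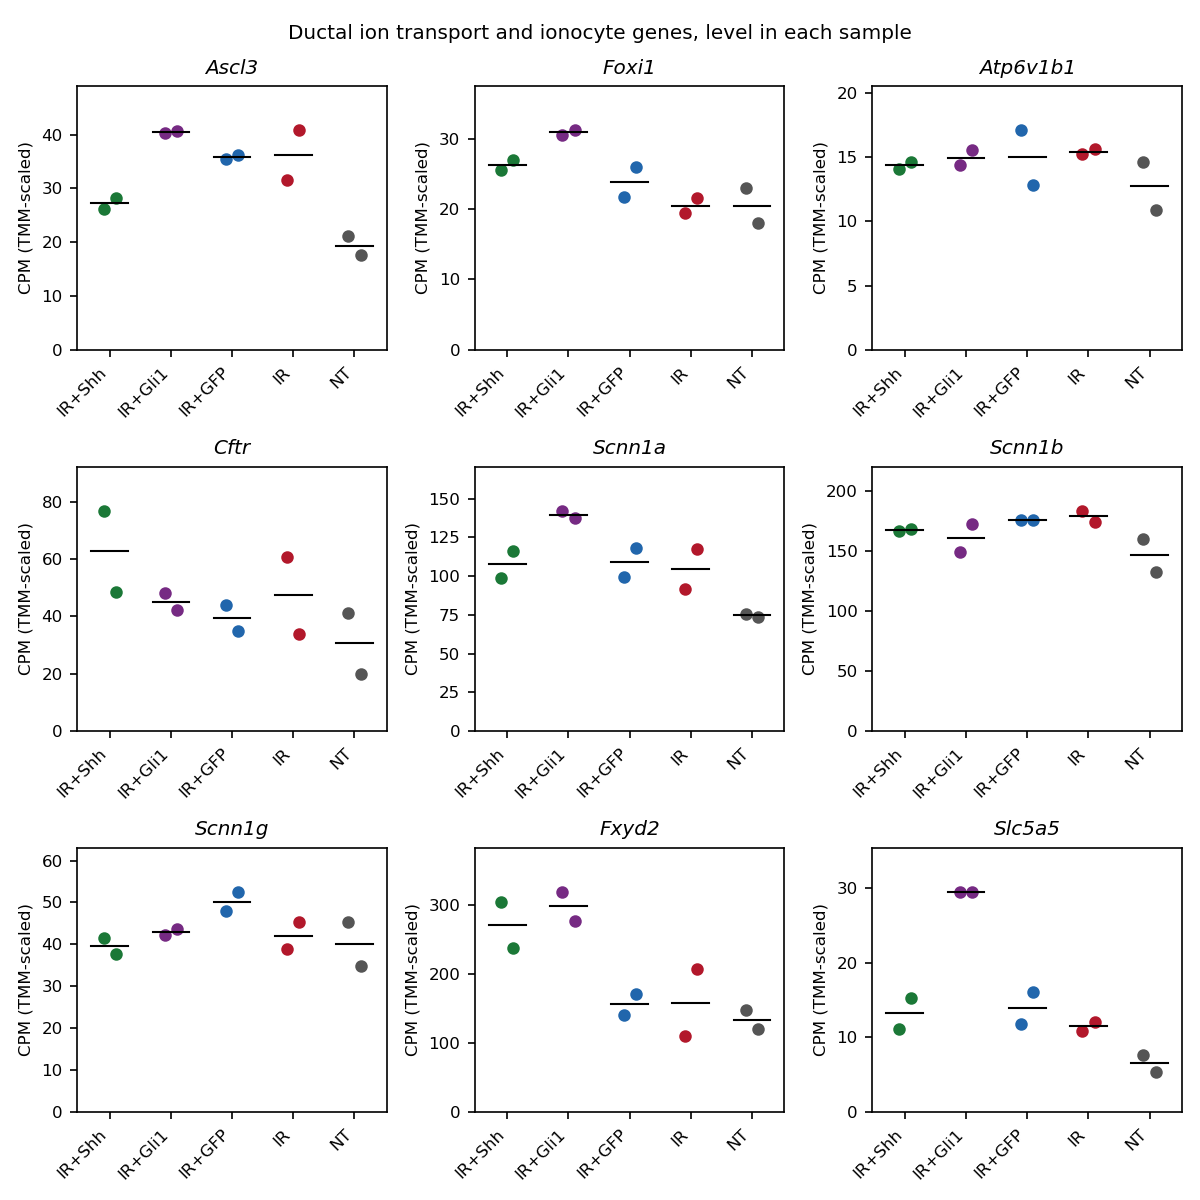
Level of each of the 9 genes in CPM after TMM scaling (vertical axis, from 0), by group, with 1 point per sample and a line at the group mean (n = 2). Slc5a5 stood at 29.5 CPM in both IR+Gli1 samples, above every other sample, and Ascl3 was lowest in the 2 NT samples.

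Ascl3 (ENSMUSG00000035951, chr7:109727465-109731726, minus strand) was the gene of the set that passed the test between irradiated and untreated glands. It had 31.5 and 40.9 CPM in IR, against 21.1 and 17.6 CPM in NT, and the groups did not overlap. It rose 1.86-fold in IR, by 0.90 ± 0.14 on the log2 scale (SE), with an adjusted p of 0.0250 in edgeR's quasi-likelihood test with Benjamini-Hochberg adjustment over all genes. In a bulk sample, fewer cells of a type and less RNA per cell cannot be told apart, and the same holds of more cells and more RNA. The call was lost with total-count scaling (adjusted p = 0.0503 in edgeR, log2 difference 0.88) and without the combined NT sample that held sublingual gland RNA (0.77, adjusted p = 0.116), and it was also lost without IR 3 (0.70, adjusted p = 0.190). Over all 23 alternatives the log2 difference was 0.70 to 1.07, and the call passed in 16 of them.

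With irradiation and transfer together, Ascl3 had 26.2 and 28.2 CPM in IR+Shh, 40.3 and 40.7 in IR+Gli1, and 35.4 and 36.3 CPM in IR+GFP. By group mean with TMM the order was IR+Gli1 with 40.5 ± 0.316 CPM, IR with 36.2 ± 6.61, IR+GFP with 35.8 ± 0.610, IR+Shh with 27.2 ± 1.38 and NT with 19.4 ± 2.48 CPM (SD, n = 2 each). IR+GFP lay within the range of IR, and the upper IR sample was above both IR+Gli1 samples. Ascl3 fell in IR+Shh against IR+Gli1, by 0.57 ± 0.13 on the log2 scale (adjusted p = 0.0365 in edgeR, Benjamini-Hochberg). Against IR+GFP, the difference of IR+Shh was -0.40 ± 0.14 on the log2 scale with no overlap between groups, and it did not pass (adjusted p = 0.806 in edgeR). With total-count scaling the difference from IR+Gli1 was -1.22, beyond the -0.67 of the median gene. The call against IR+Gli1 was lost in 7 of 23 alternatives, among them a fit of both groups alone (adjusted p = 0.0832 in edgeR) and those without IR+GFP 1 and 2 (0.0592), IR+GFP 3 (0.0578), IR+Gli1 1 and 2 (0.137), IR+Shh 1 and 3 (0.230) or IR+Shh 2 (0.167).

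Foxi1 (ENSMUSG00000047861, chr11:34204338-34208089, minus strand) did not follow Ascl3 across irradiation. It had 19.4 and 21.5 CPM in IR, against 23.0 and 18 CPM in NT, and the groups overlapped. It had 25.6 and 27.0 CPM in IR+Shh, 30.6 and 31.2 in IR+Gli1, and 21.7 and 25.9 in IR+GFP. Both IR+Gli1 samples were thus above all other samples. The difference of IR+Gli1 from IR+GFP was 0.38 ± 0.14 on the log2 scale and did not pass (adjusted p = 0.0979 in edgeR, Benjamini-Hochberg). With total-count scaling it was 1.17, where the median gene was at 0.79, and it passed (adjusted p = 0.000409 in edgeR).

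The ratio of Ascl3 to Foxi1 reads within a sample does not depend on how libraries are scaled. It was 103% and 104% in IR+Shh, 132% and 130% in IR+Gli1, 163% and 140% in IR+GFP, 162% and 190% in IR and 91.8% and 98.0% in NT. The 2 NT samples had the lowest ratios and the 2 IR+Shh samples the next, with no overlap with the 6 samples of IR, IR+GFP and IR+Gli1. With 2 samples a group, an exact two-sided permutation test of a ratio cannot give a p below 0.333, and none was run. The ratio compares samples, not the levels of the 2 genes, which differ in length.

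Atp6v1b1 (ENSMUSG00000006269, chr6:83742990-83758855, plus strand) had 14.1 and 14.6 CPM in IR+Shh, 14.4 and 15.5 in IR+Gli1, 17.1 and 12.9 in IR+GFP, 15.2 and 15.6 in IR and 14.7 and 10.9 CPM in NT. All groups overlapped in their range with IR+GFP, and no comparison passed the test with TMM scaling. With total-count scaling it had 24.7 and 20.3 CPM in IR+Gli1, against 14.8 and 11.4 CPM in IR+GFP, a difference of 0.78 on the log2 scale that was close to the 0.79 of the median gene.

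Cftr (ENSMUSG00000041301, chr6:18170687-18322768, plus strand) had 76.7 and 48.6 CPM in IR+Shh, 48.2 and 42.1 in IR+Gli1, 43.9 and 34.8 in IR+GFP, 60.6 and 33.9 in IR and 41.2 and 19.8 CPM in NT. The samples of a group lay far apart in IR, with an SD of 18.8 CPM about a mean of 47.3 CPM, and in NT, with 15.1 about 30.5 CPM (n = 2 each). No comparison of Cftr passed the test under either scaling. IR+Shh samples both lay above both IR+GFP samples, with no call. Its exons share 1.66% of their bases with Gm15592 on the other strand, and whether counting used the strand is not given in the sources used here.

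The ENaC subunits differed from each other in how they varied. Scnn1a (ENSMUSG00000030340, chr6:125320659-125344943, plus strand) had 98.9 and 116 CPM in IR+Shh, 142 and 137 in IR+Gli1, 99.8 and 119 in IR+GFP, 91.9 and 118 in IR and 75.7 and 73.7 CPM in NT. Both NT samples were below all others and both IR+Gli1 samples above all others. None of its comparisons passed with TMM scaling: the difference was 0.49 ± 0.14 on the log2 scale in IR against NT (adjusted p = 0.144 in edgeR, Benjamini-Hochberg), 0.36 ± 0.14 in IR+Gli1 against IR+GFP (0.126) and -0.38 ± 0.14 in IR+Shh against IR+Gli1 (0.131). With total-count scaling, the difference of IR+Gli1 from IR+GFP was 1.15, beyond the 0.79 of the median gene, and that of IR+Shh from IR+Gli1 was -1.02, beyond the -0.67 of the median gene.

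Scnn1b (ENSMUSG00000030873, chr7:121865038-121918514, plus strand) had 166 and 168 CPM in IR+Shh, 149 and 173 in IR+Gli1, 176 and 175 in IR+GFP, 183 and 174 in IR and 160 and 133 CPM in NT. The combined NT sample was the lowest of the 10. IR samples lay above both NT samples, with a difference of 0.29 ± 0.12 on the log2 scale that did not pass (adjusted p = 0.255 in edgeR, Benjamini-Hochberg). Scnn1g (ENSMUSG00000000216, chr7:121734479-121768475, plus strand) had 41.6 and 37.6 CPM in IR+Shh, 42.2 and 43.8 in IR+Gli1, 47.9 and 52.5 in IR+GFP, 38.9 and 45.3 in IR and 45.4 and 34.7 CPM in NT. Both IR+GFP samples were above all others, and the difference of IR+Shh from IR+GFP was -0.34 ± 0.14 on the log2 scale with no call (adjusted p = 0.806 in edgeR). With total-count scaling Scnn1b was at 0.65 and Scnn1g at 0.56 in IR+Gli1 against IR+GFP, both under the 0.79 of the median gene.

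Within samples, Scnn1a reads were 59.4% and 69.3% of Scnn1b reads in IR+Shh, 95.5% and 79.6% in IR+Gli1, 56.7% and 67.6% in IR+GFP, 50.1% and 67.4% in IR and 47.4% and 55.6% in NT. The share was higher in both IR+Gli1 samples than in any other sample. Scnn1g reads stayed between 21.2% and 29.9% of Scnn1b reads over all 10 samples, and all samples of IR+Shh (25.0% and 22.4%) and IR (21.2% and 26.0%) were below those of IR+GFP (27.2% and 29.9%) and NT (28.4% and 26.2%). The alpha to beta share thus spanned a wider relative range, from 47.4% to 95.5%, than the gamma to beta share.

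Fxyd2 (ENSMUSG00000059412, chr9:45399669-45410278, plus strand) had 303 and 237 CPM in IR+Shh, 318 and 276 in IR+Gli1, 140 and 171 in IR+GFP, 110 and 206 in IR and 147 and 120 CPM in NT. All 4 samples with Shh or Gli1 transfer were above all 6 others. The difference from IR+GFP was 0.80 ± 0.28 on the log2 scale in IR+Shh (adjusted p = 0.806 in edgeR, Benjamini-Hochberg) and 0.94 ± 0.28 in IR+Gli1 (adjusted p = 0.0609), and neither passed. Both share the 2 IR+GFP samples, so they are not independent of each other. With total-count scaling Fxyd2 was 1.74 higher on the log2 scale in IR+Gli1 than in IR+GFP and passed (adjusted p = 0.00195 in edgeR), and the difference in IR+Shh was 0.94 and did not (adjusted p = 0.882).

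Set against Scnn1b reads of the same sample, Fxyd2 reads were 182% and 141% in IR+Shh, 214% and 160% in IR+Gli1, 79.4% and 97.6% in IR+GFP, 59.9% and 118% in IR and 92.0% and 90.2% in NT. Again all 4 samples with Shh or Gli1 transfer were above all 6 others, whatever the scaling. The 2 IR samples lay far apart, below and above all samples of IR+GFP and NT.

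**Figure D2:**
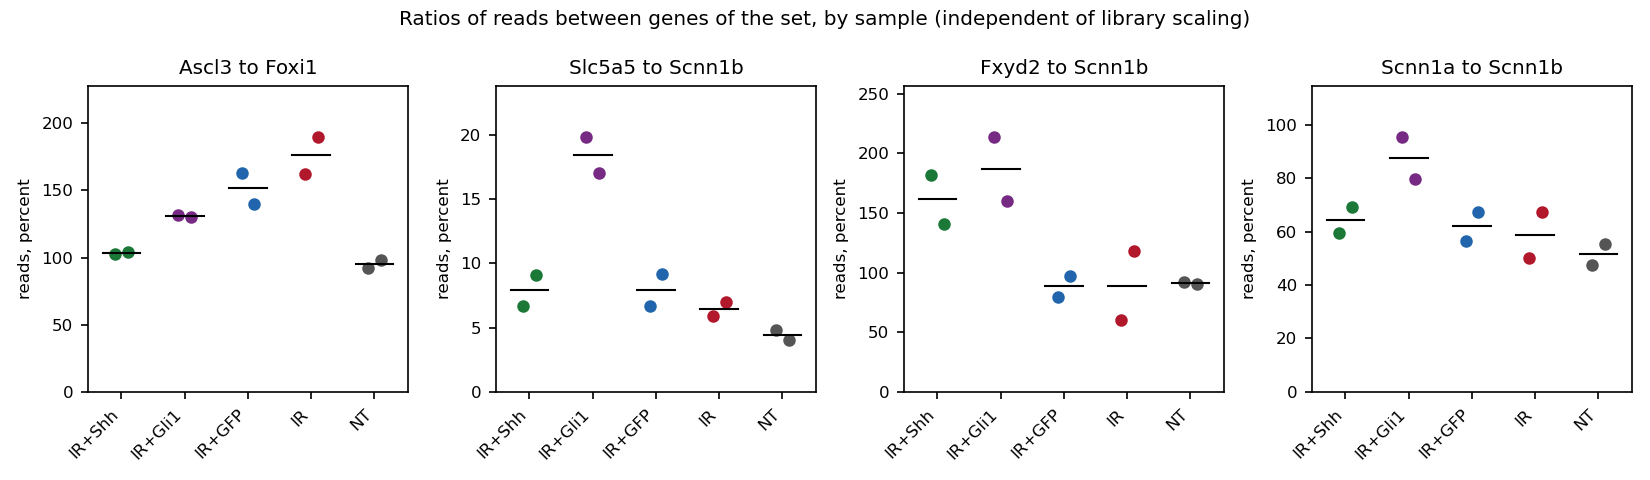
Ratios of reads between genes of the set within each sample, in percent (vertical axes, from 0), by group, with 1 point per sample and a line at the group mean (n = 2). Ascl3 to Foxi1 was lowest in NT (91.8% and 98.0%), Slc5a5 to Scnn1b highest in IR+Gli1 (19.8% and 17.1%), and Fxyd2 to Scnn1b at 141% or above in all IR+Shh and IR+Gli1 samples.

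Slc5a5 (ENSMUSG00000000792, chr8:70882889-70892757, minus strand) was the gene of the set that passed the test in IR+Gli1 against IR+GFP. It had 29.5 and 29.5 CPM in IR+Gli1, against 11.8 and 16.1 CPM in IR+GFP, and rose by 1.09 ± 0.21 on the log2 scale (adjusted p = 0.0114 in edgeR's quasi-likelihood test with Benjamini-Hochberg adjustment). It had 11.2 and 15.3 CPM in IR+Shh, and fell by 1.15 ± 0.21 on the log2 scale in IR+Shh against IR+Gli1 (adjusted p = 0.0189 in edgeR). IR+Shh and IR+GFP overlapped. With total-count scaling the level was 50.6 and 38.5 CPM in IR+Gli1, against 10.2 and 14.2 CPM in IR+GFP. The difference then was 1.88, where the median gene was at 0.79, and Slc5a5 stayed highest in IR+Gli1. IR+Shh and IR+GFP changed places between the scalings, with overlap under both: by total count their means were 12.8 ± 3.28 CPM in IR+Shh, against 12.2 ± 2.85 CPM in IR+GFP. In IR+Shh against IR+Gli1 the log2 difference was -1.79 with total-count scaling.

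The Slc5a5 call in IR+Gli1 against IR+GFP passed in 20 of 23 alternatives, over which the log2 difference was 0.87 to 1.88. It was lost in a fit of both groups alone (adjusted p = 0.0736 in edgeR), without IR+GFP 1 and 2 (0.87, adjusted p = 0.12) and without IR+Gli1 1 and 2 (1.08, adjusted p = 0.0574). The call in IR+Shh against IR+Gli1 passed in 19 of 23 and was lost in a fit of both groups alone (adjusted p = 0.0688 in edgeR) and without IR+Gli1 1 and 2 (0.0750), IR+Shh 1 and 3 (-0.94, adjusted p = 0.154) or IR+Shh 2 (-1.39, adjusted p = 0.107).

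Across irradiation alone Slc5a5 had 10.8 and 12.1 CPM in IR, against 7.68 and 5.39 CPM in NT, with no overlap. The difference of 0.80 ± 0.22 on the log2 scale did not pass (adjusted p = 0.127 in edgeR, Benjamini-Hochberg). By group mean with TMM the order was IR+Gli1 with 29.5 ± 0.0477 CPM, IR+GFP with 13.9 ± 3.05, IR+Shh with 13.2 ± 2.90, IR with 11.5 ± 0.920 and NT with 6.53 ± 1.62 CPM (SD, n = 2 each), and the 3 in the middle overlapped. Relative to Scnn1b reads, Slc5a5 reads were 6.71% and 9.08% in IR+Shh, 19.8% and 17.1% in IR+Gli1, 6.68% and 9.16% in IR+GFP, 5.91% and 6.95% in IR and 4.81% and 4.06% in NT. NT stood lowest and IR+Gli1 highest in this measure too.

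**Figure D3:**
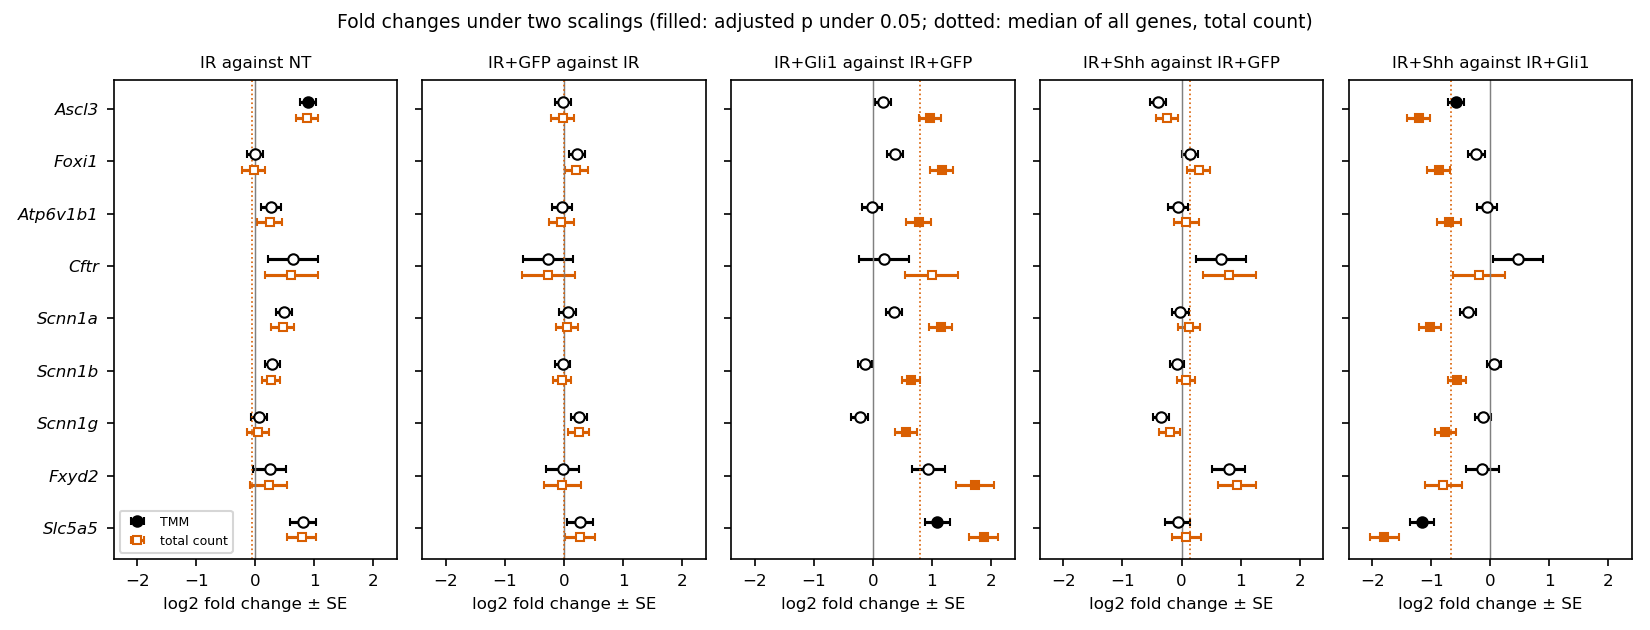
Difference of each gene on the log2 scale with its SE (horizontal axes) in the 5 comparisons, under TMM (black circles) and total-count scaling (orange squares); filled marks have an adjusted p under 0.05 in edgeR, and dotted lines mark the median of all genes under total-count scaling. With TMM, 4 differences passed, of Ascl3 and Slc5a5, while with total-count scaling 8 of 9 genes passed in IR+Gli1 against IR+GFP, around a median gene at 0.79.

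Few of the 9 genes passed, and each count is given here beside the share of all genes tested. In IR against NT 1 of 9 passed, higher, where 0.517% of all 14304 genes were called higher and 0.685% either way. Total-count scaling left 0 of 9 there, with 0.636% of all genes called. At an unadjusted p under 0.05 in edgeR with TMM were 4 of the 9 and 17.5% of all genes. With total-count scaling these were 3 of the 9 and 10.4% of all genes. In IR+GFP against IR, which asks what transfer itself changed, 0 of 9 passed and 0.0% of all genes, with 298 genes (2.08%) and 0 of the 9 at an unadjusted p under 0.05 in edgeR, 8 genes called by DESeq2 and 0 by limma-voom. In IR+Gli1 against IR+GFP 1 of 9 passed, higher, where 8.33% of all genes were called higher, so the count of the set was near the background. For IR+Shh against IR+GFP, 0 of 9 passed and 0.0% of all genes, with 873 genes (6.1%) and 3 of the 9 at an unadjusted p under 0.05 in edgeR, 34 genes called by DESeq2 and 0 by limma-voom. Between IR+Shh and IR+Gli1 2 of 9 passed, lower in IR+Shh, where 4.98% of all genes were called lower and 7.75% either way.

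The scaling decided most calls that involve IR+Gli1. In IR+Gli1 against IR+GFP, TMM gave 1191 genes higher and 817 lower, and total-count scaling 9656 higher and 89 lower. For the 9 genes this was 1 higher with TMM and 8 higher with total-count scaling, where 67.5% of all genes were called higher. For IR+Shh against IR+Gli1, TMM gave 396 genes higher and 713 lower, and total-count scaling 85 higher and 8027 lower. For the 9 genes this was 2 lower with TMM and 7 lower with total-count scaling, where 56.1% of all genes were called lower. The median difference of the 9 genes in IR+Gli1 against IR+GFP was 0.20 with TMM (all genes 0.00) and 1.00 with total-count scaling (all genes 0.79).

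With TMM scaling, groups that did not overlap were more common than calls. In IR against NT 5 of the 9 genes were higher in both IR samples than in both NT samples (Ascl3, Atp6v1b1, Scnn1a, Scnn1b and Slc5a5), where 23.9% of all genes were, and 0 were lower, where 27.3% of all genes were. The median difference of the 9 genes was 0.29 on the log2 scale, against -0.02 for all genes. All 9 genes were lower in the combined NT sample, which held sublingual gland RNA, than in NT 1 (summed levels 433 and 536 CPM). Without the combined NT sample, the log2 difference was 0.57 for Slc5a5, 0.46 for Scnn1a and 0.16 for Scnn1b. With it, these were 0.80, 0.49 and 0.29. The part of sublingual gland RNA in these differences was not tested. In IR+Gli1 against IR+GFP 5 were higher (Ascl3, Foxi1, Scnn1a, Fxyd2 and Slc5a5), where 28.9% of all genes were, and 2 lower (Scnn1b and Scnn1g, both higher with total-count scaling), where 27.3% were. In IR+Shh against IR+GFP 2 were higher (Cftr and Fxyd2), where 21.7% were, and 3 lower (Ascl3, Scnn1b and Scnn1g), where 20.4% were, with Scnn1b at 0.07 on the log2 scale under total-count scaling. Against IR+Gli1, IR+Shh had 5 lower (Ascl3, Foxi1, Scnn1a, Scnn1g and Slc5a5), where 29.8% of all genes were, and 1 higher (Cftr, at -0.19 on the log2 scale under total-count scaling), where 28.7% were.

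**Figure D4:**
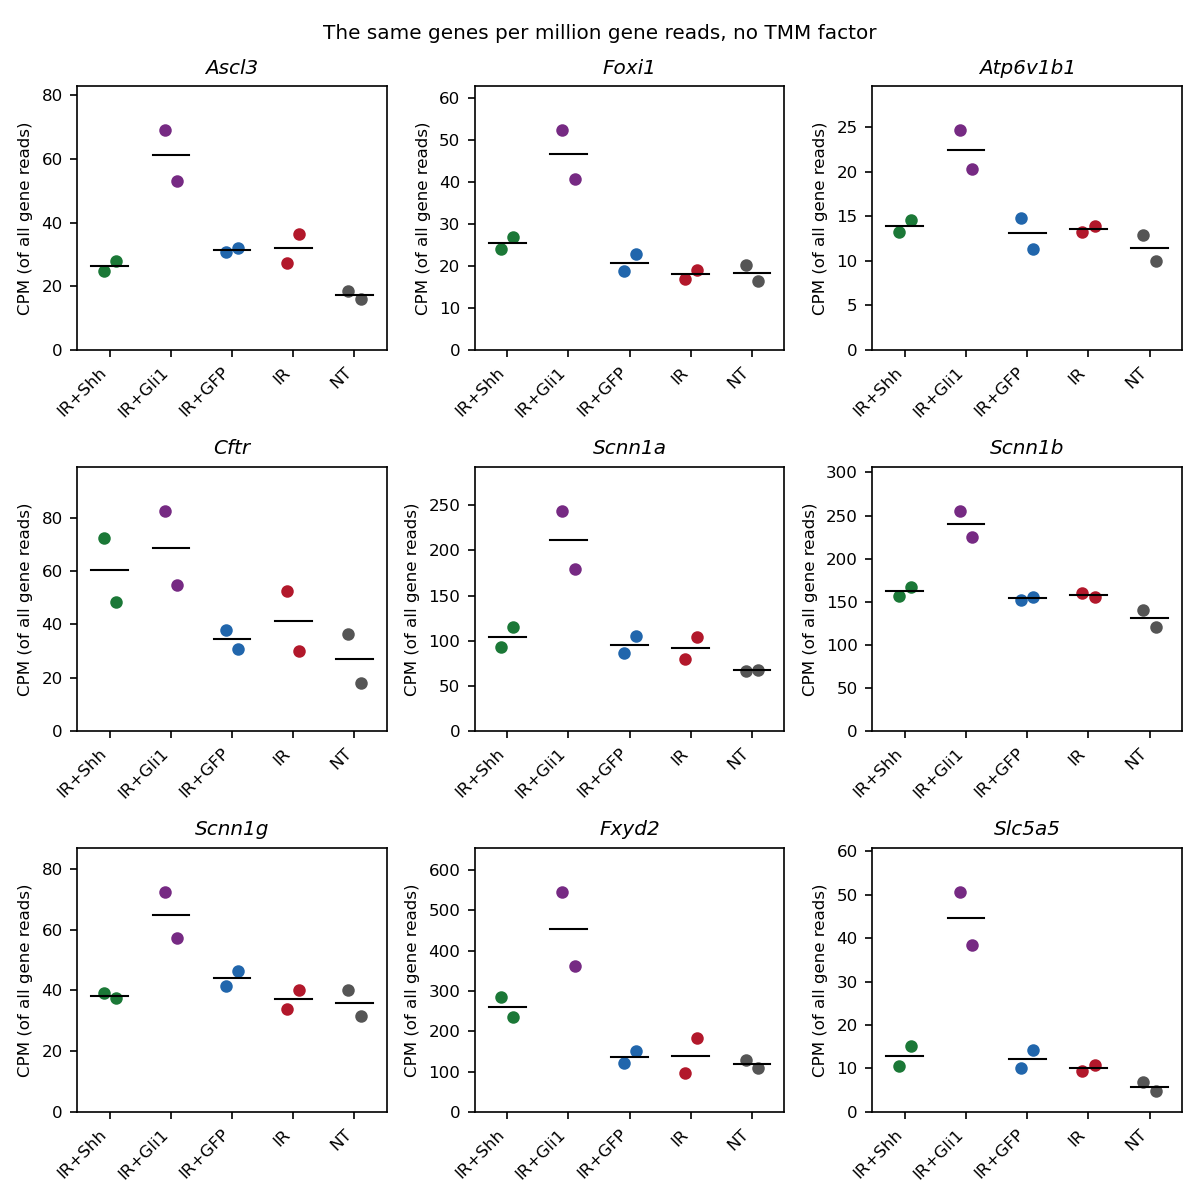
Level of the same genes in CPM of all gene reads with no TMM factor (vertical axis, from 0), by group, with 1 point per sample and a line at the group mean (n = 2). Every gene had its highest group mean in IR+Gli1, from 22.5 CPM for Atp6v1b1 to 454 CPM for Fxyd2, in the group where the median gene was also shifted.

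Genes that act beside the set were counted from lists of their pathways. The shares of all genes beside these counts are, in IR+Gli1 against IR+GFP, 8.33% higher and 5.71% lower with TMM and 67.5% higher and 0.622% lower with total-count scaling, and, in IR+Shh against IR+Gli1, 2.77% higher and 4.98% lower with TMM. Of 13 tested ionocyte genes, 2 rose and 2 fell in IR+Gli1 against IR+GFP, and 9 did not pass. The median of the list there was 0.27 with TMM (all genes 0.00) and 1.06 with total-count scaling (all genes 0.79). The summed level of the 15 listed genes was 338 CPM in both IR+Gli1 samples and 324 to 325 CPM in IR+GFP. P2ry14, a receptor for UDP-sugars, fell by 1.39 ± 0.18 on the log2 scale to 12.7 ± 3.26 CPM in IR+Gli1, against 33.2 ± 1.17 CPM in IR+GFP, and Atp6v1c2, a C subunit of the vacuolar proton pump, fell by 1.35 ± 0.23 to 13.1 ± 5.12 CPM in IR+Gli1, against 33.2 ± 1.97 CPM in IR+GFP. Both also fell with total-count scaling, by 0.63 and 0.60 on the log2 scale. Between IR+Shh and IR+Gli1, 3 of the 13 rose in IR+Shh and 1 fell, with P2ry14 at 25.5 ± 2.26 CPM in IR+Shh (log2 difference 1.02) and Coch at 10.8 ± 0.355 CPM in IR+Shh, against 4.96 ± 1.82 CPM in IR+Gli1 (1.15). With total-count scaling neither passed (adjusted p = 0.0738 for P2ry14 and 0.0515 for Coch in edgeR). The median of the list in IR+Shh against IR+Gli1 was -0.15 with TMM (all genes -0.02) and -0.82 with total-count scaling (all genes -0.67). Under total-count scaling 9 of the 13 listed ionocyte genes were called higher in IR+Gli1 against IR+GFP, a share near that of all genes, and 2 lower. Of the 14 general subunits of the vacuolar proton pump, none passed in the 5 comparisons with TMM scaling in edgeR, with 5 at an unadjusted p under 0.05 in IR+Gli1 against IR+GFP, where 29.5% of all genes were. With total-count scaling 13 of 14 were called higher there, with a median of 0.94 on the log2 scale, against 0.79 for all genes.

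Regulators of ENaC had 2 of 10 higher in IR+Gli1 against IR+GFP. St14, a membrane protease whose cascade with Prss8 cleaves ENaC, had 210 and 161 CPM in IR+Gli1, against 112 and 127 CPM in IR+GFP, a rise of 0.63 ± 0.13 on the log2 scale (adjusted p = 0.0157 in edgeR), and of 1.45 with total-count scaling. Tsc22d3, a glucocorticoid- and aldosterone-induced leucine zipper protein, rose by 0.60 ± 0.16, and by 1.35 with total-count scaling. Against IR+Gli1, IR+Shh had 1 of 10 past the test, St14, which fell by 0.69 ± 0.13 on the log2 scale, with a difference of -1.36 under total-count scaling. The list of the sodium pump and the other FXYD proteins had 2 of 10 higher in IR+Gli1 against IR+GFP, among them Fxyd5 (2.51 ± 0.31), and 1 lower in IR+Shh against IR+Gli1, Fxyd5 (-1.71 ± 0.29). With total-count scaling these Fxyd5 differences were 3.36 and -2.41. Fxyd5 is also made by leukocytes, and the sum of the listed leukocyte genes, among them Ptprc, Cd68, Cd3e, Itgam and S100a8, was 17.8 to 18.3 CPM in IR+Shh, 43.9 to 91.7 CPM in IR+Gli1, 8.48 to 14.5 CPM in IR+GFP, 11.1 to 11.4 CPM in IR and 14.04 to 23.0 CPM in NT, with 3 of 4 tested members higher in IR+Gli1 against IR+GFP. With total-count scaling the sum was 57.3 to 157 CPM in IR+Gli1, against 7.34 to 12.8 CPM in IR+GFP. The part of leukocytes in these results was not tested.

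Of 8 tested genes of iodide handling other than Slc5a5, 2 rose in IR+Gli1 against IR+GFP. Kcnq1, a potassium channel, had 46.5 and 50.7 CPM in IR+Gli1, against 32.5 and 33.8 CPM in IR+GFP, a rise of 0.55 ± 0.12 on the log2 scale (adjusted p = 0.0198 in edgeR), and of 1.33 with total-count scaling. Duoxa2, the maturation factor of the peroxide-making oxidase Duox2, had 16.1 and 15.4 CPM in IR+Gli1, against 8.48 and 9.54 CPM in IR+GFP, a rise of 0.81 ± 0.20 (adjusted p = 0.0301), and of 1.60 with total-count scaling. Duoxa2 fell by 0.80 ± 0.20 on the log2 scale in IR+Shh against IR+Gli1, the 1 of 8 that passed there with TMM, and by 1.44 with total-count scaling. Slc5a5 and Duoxa2 were thus both higher in IR+Gli1 than in IR+GFP and IR+Shh. The median of the list in IR+Gli1 against IR+GFP was 0.43 with TMM (all genes 0.00) and 1.22 with total-count scaling (all genes 0.79).

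Among 13 tested transporters of bicarbonate, protons, chloride and potassium, 1 passed in IR against NT, where 0.517% of all genes were called higher. This was Clcn2, a chloride channel. It had 83 and 74.2 CPM in IR, against 56.1 and 52.8 CPM in NT, and rose by 0.53 ± 0.10 on the log2 scale (adjusted p = 0.0474 in edgeR), a call lost with total-count scaling (adjusted p = 0.208). In IR+Gli1 against IR+GFP 1 of 13 passed, Car12, a carbonic anhydrase of the cell surface, which had 233 and 217 CPM in IR+Gli1, against 117 and 130 CPM in IR+GFP (0.87 ± 0.18, and 1.66 with total-count scaling). Set against IR+Gli1, IR+Shh had 0 of 13 past the test in edgeR, with 2 at an unadjusted p under 0.05, where 26.5% of all genes were. In IR+GFP against IR and in IR+Shh against IR+GFP no gene of any list passed.

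Marker lists of the gland's cell types were set beside the set. Of 11 duct epithelium genes, 2 rose in IR+Gli1 against IR+GFP, Cdh1, the epithelial cadherin (0.62 ± 0.10), and Krt8, a keratin of simple epithelia (0.54 ± 0.13), and both fell in IR+Shh against IR+Gli1 (-0.48 ± 0.10 and -0.66 ± 0.13). With total-count scaling Cdh1 was at 1.42 and Krt8 at 1.35 in IR+Gli1 against IR+GFP. Of the other members, 9 did not pass with TMM, among them Ehf, an epithelial transcription factor, with 353 and 437 CPM in IR+Gli1, against 493 and 542 CPM in IR+GFP. At an unadjusted p under 0.05 in edgeR with TMM were 7 of the 11 in that comparison, where 29.5% of all genes were. The median of the 11 genes was 0.26 with TMM (all genes 0.00) and 1.05 with total-count scaling (all genes 0.79). The summed level of the 11 genes was 7091 to 10508 CPM in IR+Shh, 5591 to 7110 CPM in IR+Gli1, 6613 to 7006 CPM in IR+GFP, 5450 to 7926 CPM in IR and 6299 to 6899 CPM in NT, and Klk1 was the most abundant of the 11 in every sample. Without Klk1, the other 10 genes summed to 2664 CPM in both IR+Shh samples, 3246 to 3447 CPM in IR+Gli1, 2870 to 3357 CPM in IR+GFP, 2799 to 2966 CPM in IR and 2758 to 2963 CPM in NT, so that with TMM IR+Shh lay above IR+GFP and NT with Klk1 and below all other samples without it. With total-count scaling the sum without Klk1 was 2510 to 2645 CPM in IR+Shh, 2484 to 2969 CPM in IR+GFP and 2510 to 2612 CPM in NT, and these groups overlapped. In IR+Gli1, where the median gene was also shifted, it was 4503 to 5568 CPM. Of 4 basal duct genes 2 rose and 1 fell in IR+Gli1 against IR+GFP, with Trp63, the basal cell transcription factor, at 0.78 ± 0.20 and Krt5 at 0.50 ± 0.13, or 1.59 and 1.29 with total-count scaling. Of 8 granular tubule genes 7 fell, with Klk1b9, a kallikrein, which fell by 2.48 ± 0.37 on the log2 scale, and Crisp1, a secreted cysteine-rich protein, by 2.59 ± 0.42. With total-count scaling their differences were -1.77 and -1.87. The median of the 8 genes was -1.87 with TMM and -1.16 with total-count scaling. Of 7 acinar genes 1 rose, the chloride channel Ano1 (0.66 ± 0.15, and 1.45 with total-count scaling), and 2 fell, among them the chloride importer Slc12a2 (-0.73 ± 0.18, and 0.04 with total-count scaling). The part of the makeup of cells in the Slc5a5 and Fxyd2 levels was not tested.

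The genes whose profile over the 10 samples was most like that of the 2 called genes were named by the smallest root mean square difference of centred log2 values. For Ascl3, whose own profile had a root mean square of 0.39, they included Aen, a nuclease (0.15), and Atg16l2, a relative of an autophagy protein (0.16). Aen had a mean of 27.8 CPM in IR+Shh, 36.7 CPM in IR+Gli1, 34.6 CPM in IR+GFP, 30.6 CPM in IR and 18.7 CPM in NT. These means stood in the same order as those of Ascl3 except that IR stood below IR+GFP. For Slc5a5, whose own profile had 0.70, they were Galnt15, a glycosyltransferase (0.20), Sulf2 (0.20) and Ier5, an immediate early gene (0.25). Sulf2, a sulfatase of the cell surface, had a mean of 49.3 CPM in IR+Shh, 104 CPM in IR+Gli1, 44.2 CPM in IR+GFP, 39.1 CPM in IR and 21.0 CPM in NT. Levels were low for Atg16l2, with group means of 1.44 CPM (NT) to 3.09 CPM (IR+Gli1), and for Galnt15, with 1.11 CPM (NT) to 5.18 CPM (IR+Gli1).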

How the data were processed

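Total RNA of submandibular glands was made into TruSeq RNA libraries, 3 in each of 5 groups, per the labels' protocols. The deposited tables hold raw read counts per Ensembl gene. The submitters' processing notes name TopHat2 2.0.13, Bowtie 0.12.2, DESeq2 and HTSeq 0.10.0, and the builds GRCm38 and mm10; the strand mode and the annotation release are not given in the sources used here. The last lines of each table, which name no gene, were left out; reads with several alignments were 8.22% in IR+GFP 3, 7.53% in IR+Gli1 3 and 2.89% to 4.79% elsewhere. GENCODE vM21 gave a symbol to 37607 of the 39179 genes, and promoters and their coordinates came from RefSeq.

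Libraries of a group with a mean chi-square under 1 per gene (over genes whose reads in the pair sum to 20 or more) were combined by the rounded mean of their counts. The 10 samples were fitted in edgeR 4.0.16 (R 4.3.3) with filterByExpr, which kept 14304 genes, TMM scaling, 1 mean per group and robust two-sided quasi-likelihood tests, adjusted by Benjamini-Hochberg over all genes at 0.05, with 5 residual degrees of freedom. Levels are CPM on the TMM-scaled library size, log2 differences used a prior count of 0.125, and SE is the log2 difference over the square root of F. Same-numbered libraries were checked for pairing, and 3 of 30 pairs correlated over 0.1. With near-identical libraries in every group, the pairs are not separate checks and cannot decide whether numbers pair libraries. Numbers were not taken to pair libraries in the main fit.

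The 9 genes and the lists of pathway and marker genes were chosen with earlier results of these data known. One listed symbol, Muc10, was not matched. Named list genes are up to 2 per list and comparison with the smallest adjusted p among those that passed, and up to 3 nearest profiles per called gene. A few genes that these rules name are not reported here. Alternatives were other scalings (DESeq2 size factors, upper quartile, total count), other filters, DESeq2 1.42.0, limma-voom (limma 3.58.1), the compared groups alone, separate libraries, the deeper library of each pair, a replicate block and leaving out samples. The fit was tested on simulated data.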

Additional observations from a re-analysis of the deposited data

How the results depend on the processing

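The count of the 9 genes that passed changed most with how libraries and scaling were treated. In IR against NT it was 1 as reported, 0 with total-count scaling, 4 with no low-count filter, 3 with DESeq2, 0 with the compared groups alone, 6 with 15 separate libraries and 0 to 1 when a sample was left out. In IR+GFP against IR it was 0 in all 23 alternatives. In IR+Gli1 against IR+GFP it was 1 as reported, 8 with total-count scaling, 3 with no filter, 2 with DESeq2, 0 with the groups alone, 4 with 15 libraries and 0 to 2 when a sample was left out. For IR+Shh against IR+GFP it was 0 as reported and 2 both with no filter and with 15 libraries. For IR+Shh against IR+Gli1 it was 2 as reported, 7 with total-count scaling, 0 with the groups alone, 4 with 15 libraries, 1 without IR+GFP 3 and IR+Gli1 3 together and 0 to 2 when a sample was left out. The direction of the 4 differences that passed was kept in every alternative. The fit of 15 libraries counts near-identical libraries as separate, and when a sample was left out the lone sample was taken to vary like the other groups. Leaving out the 50 most abundant genes, chosen after seeing the data, changed no count. The cause of the other changes was not tested.

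With the replicate number as a block in the fit of 15 libraries, the counts were 5 in IR against NT, 0 in IR+GFP against IR, 4 in IR+Gli1 against IR+GFP, 2 in IR+Shh against IR+GFP and 3 in IR+Shh against IR+Gli1. Of 30 same-numbered pairs, 3 correlated over 0.1. Near-identical libraries in every group mean that these pairs are not separate checks, so they cannot decide whether the numbers pair the libraries. Over all genes, calls ranged over the alternatives from 9 to 4154 around 98 in IR against NT, 0 to 214 around 0 in IR+GFP against IR, 1 to 9745 around 2008 in IR+Gli1 against IR+GFP, 0 to 538 around 0 in IR+Shh against IR+GFP and 0 to 8112 around 1109 in IR+Shh against IR+Gli1. With 2 samples a group, differences that missed the threshold are not shown to be absent.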
